A study of Mus musculus with 16 samples.

Results

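A set of 36 interferon-stimulated genes, which cells switch on after type I interferon, was followed in bulk RNA of mouse inguinal white adipose tissue (iWAT). The set was the rows of the deposited table whose gene name was on a list of such genes, 36 of 54532 genes, and each name matched 1 row. The list was chosen from knowledge of earlier results of these libraries, so the levels and differences of its genes are given as a description, and counts of called genes are read against the share of all genes called in the same comparison. There were 16 libraries in 4 groups of 4, all from male mice that entered the experiment at 8 to 10 weeks of age and ate chow with 200 mg/kg doxycycline for 5 days before the tissue was taken. Has2_TG stands for Apn-Has2 mice, which carry Apn-rtTA and TRE-Has2, and Has2_WT for their Apn-rtTA littermates. PH20_TG stands for Apn-PH20 mice, which carry Apn-rtTA and TRE-PH20, and PH20_WT for their own Apn-rtTA littermates. All 4 groups therefore carried Apn-rtTA and received doxycycline. The adiponectin promoter drives rtTA in adipocytes, so that the transgene for hyaluronan synthase 2 (Has2) or for the hyaluronidase PH20 is switched on there. Has2 was also read in every control library, so its count is not that of the transgene alone. The strain background was not given in the sources used here, nor whether a library came from a single mouse, so that p-values measure the spread between these libraries.

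Type I interferons bind a receptor on nearly every cell type, and the kinases Jak1 and Tyk2 then activate transcription factors. These form a complex that binds the interferon-stimulated response element in promoters and raises genes that sense foreign nucleic acids, degrade RNA or block viral entry and budding. Interferon gamma acts on another element, the gamma-activated site. In adipose tissue, adipocytes, stromal progenitors, endothelial cells and resident immune cells all carry these receptors and express part of the genes at rest.

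Gene-level depth lay between 14421692 and 26751729 reads, and all 36 genes averaged 50 reads or more in each comparison. Has2 itself had 2.59 ± 0.631 (SD, n = 4) FPKM (fragments per kilobase of gene, scaled to library size) in Has2_TG and 0.585 ± 0.176 (SD, n = 4) in Has2_WT. Spam1, which encodes PH20, had 5 to 12 reads in PH20_TG2, PH20_TG3 and PH20_TG4 and none was read in PH20_TG1 or in the 12 libraries outside PH20_TG. Since 0 reads are compatible with as many as 3, the transgene was not detectable in PH20_TG1 at this depth and did not check its label. Has2 had 3.32 FPKM in PH20_TG1 and 3.26 in PH20_TG4, above every Has2_TG library, against 0.380 in PH20_TG2, 0.0990 in PH20_TG3 and at most 0.897 in PH20_WT. PH20_TG1 was kept in its labelled group, and the counts without it are given beside the results. Several libraries stood apart in cell type markers. The summed FPKM of 11 T cell markers was 266.9 in Has2_WT1, 144.6 in Has2_WT2, 377.8 in PH20_WT1 and 134.7 in PH20_WT3, and from 2.72 to 13.9 in the other 12 libraries. Markers of B cells, lymph node stroma and plasmacytoid dendritic cells were also highest in these 4 control libraries. The sum of 5 adipocyte progenitor markers ran from 80.2 to 201 in Has2_WT and from 304.3 to 485 in Has2_TG, from 104 to 474 in PH20_WT, and was 59.7 in PH20_TG2, 68.8 in PH20_TG3, 421 in PH20_TG1 and 398 in PH20_TG4. The sum of 8 skeletal muscle markers ran from 22.1 to 93.4 in Has2_WT, from 7.92 to 722 in Has2_TG, from 207 to 864 in PH20_WT and from 9.35 to 245 in PH20_TG. The 8 adipocyte markers were detected in every library, at sums from 4253 to 10150. In bulk RNA, fewer cells of a type and less RNA per cell cannot be told apart.

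The promoters are shown first, because the response element is what these genes are known for. RefSeq promoter windows of GRCm38.p6, from 250 bases before to 50 bases after the start site, were found for 25 of the 36 genes, in 28 promoters. The core of the response element was searched as GAAANNGAAA on the strand of the gene and as TTTCNNTTTC for the other strand, with N any base and with overlapping matches counted. It was found in 14 of the 25 genes (56%), against 3.99% of the 27025 genes in the promoter table. The core of the gamma-activated site, TTCNNNGAA, which reads the same on both strands, was found in 5 of the 25 (20%), against 9.55% of all genes. A match describes the letters in the window and is not a measured binding site. The windows below hold 30 bases each in the direction of the gene, with the core in capitals. They are shown for genes that the comparisons turn on, for Isg15 as a classical target of the element, and for Ifit3 and Ifit3b as near-identical neighbours.
Isg15 (chr4:156200871-156200900, minus strand): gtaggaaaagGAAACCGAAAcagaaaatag
Ifit1 (chr19:34640794-34640823, plus strand): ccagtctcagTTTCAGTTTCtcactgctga
Ifit3 (chr19:34583363-34583392, plus strand): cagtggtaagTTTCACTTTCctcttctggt
Ifit3b (chr19:34607759-34607788, plus strand): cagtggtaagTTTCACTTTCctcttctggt
Ifitm3 (chr7:141010706-141010735, minus strand): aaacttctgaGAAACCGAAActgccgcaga
Ifi208 (chr1:173673597-173673626, plus strand): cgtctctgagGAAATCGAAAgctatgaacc
Trim30a (chr7:104465210-104465239, minus strand): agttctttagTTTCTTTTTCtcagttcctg
Rsad2 (chr12:26456553-26456582, minus strand): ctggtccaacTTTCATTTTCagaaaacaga
The Isg15 window has the core at -72 from the start site and lies inside a run of 3 overlapping matches at -78, -72 and -66. The windows of Ifit3 and Ifit3b are the same base for base, at -156 in the first gene and at -188 in the second. Ifi208 has its only match at -58, and in Ifitm3 the matches begin at positions 2 and 19 after the start site. The windows of Ifit2, Oasl2 and Irf7 held no match to the response element core, and Ifi204, Oas2, Usp18 and Ly6e were among the 11 genes that the promoter table did not list. Of the 14 genes with the core, 3 were called higher in Has2_TG and 2 were called lower in PH20_TG, and of the 11 without it, 3 and 1 were. Calls here are at an unadjusted p under 0.05 in the limma fits described below. Of all genes tested, 6.25% were called higher in Has2_TG and 3.39% lower in PH20_TG. Ifi204 and Oas2, called in Has2_TG, and Ly6e, called in PH20_TG, had no window and are not in these counts.

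**Figure D1:**
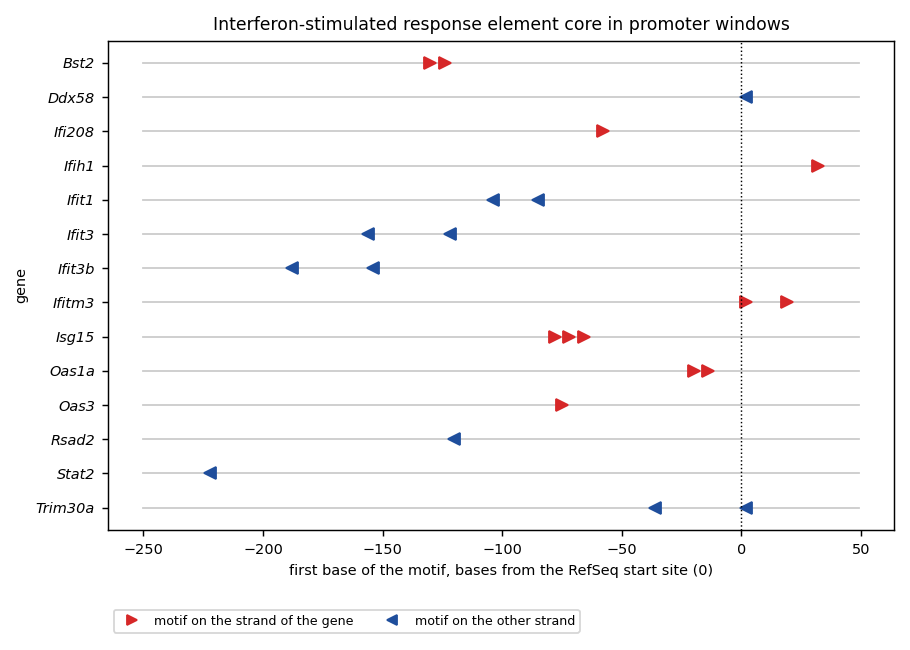
Position of each match to the response element core in the promoter windows of 14 genes, as the distance in bases of the first base of the match from the RefSeq start site (dotted line at 0); red triangles mark matches on the strand of the gene, blue triangles those on the other strand, and grey lines the window searched. The 3 matches of Isg15 overlap between -78 and -66, and those of Ifit3 and Ifit3b lie on the other strand.

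Levels differed widely within the set. Per kilobase of gene, 3 members had a mean over 100 FPKM across the 16 libraries, 8 had 10 to 100, 22 had 1 to 10 and 3 had less than 1. The highest was Ifi27, a small membrane protein, with a mean of 413 FPKM, followed by Ifitm3 with 184.5 and Ly6e with 143. The lowest were Ifi208, Ifi44 and Oas3, with 0.852, 0.791 and 0.786 FPKM. The highest library exceeded the lowest by a median of 3.07-fold over the 36 genes. Only 4 genes stayed within 2-fold, and 2 spanned more than 10-fold, Ifi208 with 297-fold and Oas3 with 10.0-fold. Of the 576 pairs of a gene and a library, 2 had 3 reads or fewer, both of Ifi208 in PH20_TG.

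The group means did not order the libraries by transgene alone. The mean of the 36 genes on the log2(FPKM + 0.1) scale, after each gene was centred on its mean over all libraries, was -0.17 ± 0.13 (SD, n = 4) in Has2_WT, 0.14 ± 0.14 in Has2_TG, 0.17 ± 0.14 in PH20_WT and -0.13 ± 0.30 in PH20_TG. The control groups thus lay at opposite ends of this range, and Has2_TG lay next to PH20_WT. The group with the lowest mean FPKM was Has2_WT for 21 of the 36 genes and PH20_TG for 9. Single libraries weighed on this. Has2_WT1 held the highest value of all libraries for 8 genes and the lowest for 9, and PH20_TG2 held the lowest for 8. Within PH20_TG the centred mean was 0.19 in PH20_TG1 and 0.047 in PH20_TG4 but -0.41 in PH20_TG2 and -0.37 in PH20_TG3.

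**Figure D2:**
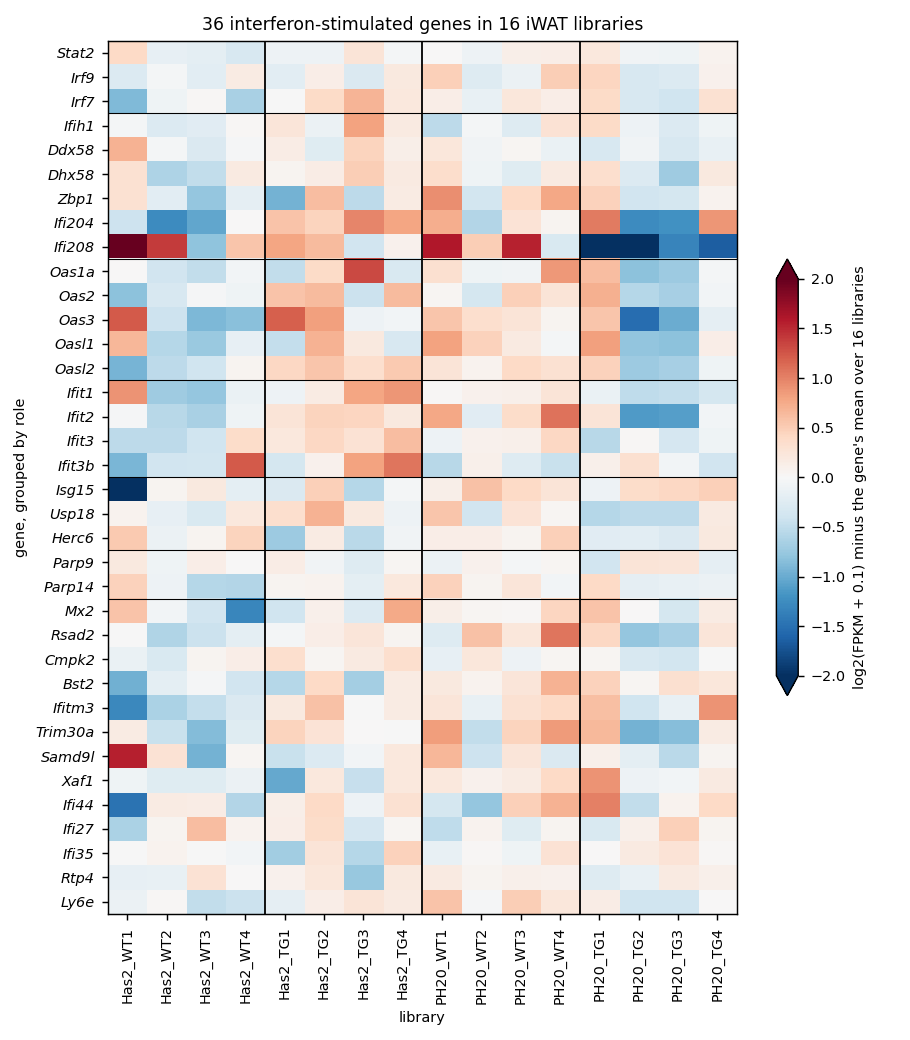
Level of the 36 genes (rows, grouped by role) in the 16 libraries (columns, grouped by genotype), coloured by log2(FPKM + 0.1) minus the mean of the gene over all libraries, with colours cut at -2 and 2. PH20_TG2 and PH20_TG3 are low for many genes, Has2_WT1 is the highest library for 8 genes and the lowest for 9, and Ifi208 is lowest in the PH20_TG libraries.

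For the Has2 study, 8 of the 36 genes were called higher in Has2_TG than in Has2_WT and 0 were called lower. They were Ifi204, Oasl2, Ifitm3, Irf7, Oas2, Ifit2, Ifit3 and Trim30a, which include a DNA-binding protein, members of the oligoadenylate synthetase and Ifit families, a block to viral entry and a transcription factor of interferon genes. A gene was called at an unadjusted p under 0.05 in a limma fit of the 8 libraries. The members called higher were 22.2% of the set, against 6.25% of the 12606 genes tested, and 3.75% of all genes were called lower. The log2 difference was positive for 29 genes and negative for 7, with a median of 0.35 against -0.027 over all genes. After Benjamini-Hochberg adjustment over all genes 0 members passed in limma, and the smallest adjusted p was 0.0842, for Ifi204. The FPKM of Ifi204, Oasl2, Ifitm3 and Ifit2 did not overlap between the groups, so 4 of 36 members lay wholly above the controls, against 6.19% of all genes without overlap in either direction. The summed FPKM of the adipocyte progenitor markers did not overlap between these groups either, while overlap of the single markers was not examined. Of these markers 4 of 5 were called higher, with a median log2 difference of 1.58, and Cd55, at 0.29, was not. Of 8 macrophage markers 5 were called higher, with a median of 0.77. Of the lymphoid markers, 3 of 12 for B cells and 2 of 11 for T cells were called lower, with medians of -2.90 and -2.64. With the progenitor score as a covariate, 6 members were called higher and 1 lower, of which Ifitm3, Irf7 and Oas2 were among the 8 above and Ifi27, Ifi44, Isg15 and Samd9l were not, and the median of the set was 0.029. Since the progenitor marker sums of the groups did not overlap, the score and the genotype cannot be told apart in this fit. Without Has2_WT1 and Has2_WT2, the controls rich in T cell markers, 10 were called higher, of which 6 were among the 8.

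For the PH20 study, 4 of the 36 genes were called lower in PH20_TG than in PH20_WT and 0 were called higher. They were Ifi208, Ifit1, Ifit2 and Ly6e. These were 11.1% of the set, against 3.39% of the 12532 genes called lower and 3.20% called higher. The log2 difference was negative for 29 members and positive for 7, with a median of -0.19 against 0.0090 over all genes. No member passed adjustment, nor did any gene of the table at the adjusted threshold, the smallest adjusted p of a member being 0.582. The groups did not overlap for 2 members, Ifi208 and Ifit1, against 4.54% of all genes. The count rested on single libraries: it was 9, these 4 included, without PH20_TG1, which had no Spam1 reads, 7 without PH20_WT2, and 2 without PH20_WT4 or without PH20_TG3. PH20_TG2 and PH20_TG3 were the PH20 libraries lowest in progenitor and macrophage markers. Without them only Ifi208 was still called lower, Ifi204 and Ifitm3 were called higher, and the median of the set was 0.0099. With the progenitor score as a covariate over all 8 libraries, 5 members were called lower: Ifi208, Ifit1, Ifit2, Ly6e and Ifit3. The median of the set was then -0.11, and 464 genes of the whole table were called lower. Of 8 muscle markers, 7 were called lower in PH20_TG, with a median log2 difference of -3.81. With the skeletal muscle score as a covariate 1 member was called, also Ifi208, but the log2 differences of Ifit1, Ifit2 and Ly6e stayed at -0.48, -0.98 and -0.47 and the median of the set at -0.19, while the genes called lower in the whole table went from 425 to 100. Of the lymphoid markers, 6 of 12 for B cells and 4 of 11 for T cells were called lower, with medians of -3.02 and -2.12. Without PH20_WT1 and PH20_WT3, the controls rich in T cell markers, Ifit1 was still called, Ifit2 at -0.94 and Ly6e at -0.26 were not, Ifi208 fell under the minimum for testing, and Rsad2 was called lower. The part of these cell types in the differences was not tested.

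The difference between the studies, the change in the Has2 line minus the change in the PH20 line, was then fitted over all 16 libraries, since a call in 1 line and not in the other does not show that the lines differ. It was called higher for 12 of the 36 members and lower for 0, a share of 33.3% against 4.03% of the 12593 genes called higher and 3.68% called lower. The 12 were Oasl2, Ifit3, Ifit2, Ifit1, Ly6e, Ifi208, Ifi204, Irf7, Rsad2, Usp18, Trim30a and Ifitm3. The gap between the control groups is part of this difference. The centred mean of the set was -0.17 in Has2_WT and 0.17 in PH20_WT, and 0.14 in Has2_TG and -0.13 in PH20_TG. A call here therefore does not show that the transgenes moved a gene in opposite directions. The difference was positive for 30 members and negative for 6, with a median of 0.50 against -0.025 over all genes, and 0 members passed adjustment (smallest adjusted p 0.567). The count was 7 without Has2_WT2 and 6 without PH20_TG2 or without PH20_TG3. It was 15 without PH20_TG1. With the skeletal muscle score as a covariate 6 were called, but the median of the set was 0.57, and the log2 differences of Ifi204 and Trim30a, no longer called, were 1.63 and 1.08. With the progenitor score 3 were called, Ifit2, Ifit3 and Oasl2, the median was 0.25, and Ifi204 and Trim30a had 0.15 and 0.25. In the Has2 libraries that score cannot be told apart from the genotype. Without the 4 controls rich in T cell markers 8 were called, 6 of them among the 12.

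The controls themselves differed. Both carry Apn-rtTA and ate doxycycline, and the labels separate them only by line, so the line and anything else that differed between the litters cannot be told apart. In the same fit, 7 of the 36 members were called lower in Has2_WT than in PH20_WT and 0 were called higher, against 4.66% and 5.61% of all genes. The 7 were Ly6e, Ifitm3, Oasl2, Bst2, Ifit2, Rsad2 and Isg15, with log2 differences of -0.57, -0.86, -0.71, -0.69, -0.83, -0.71 and -0.86. The median of the set was -0.39, and the log2 difference was negative for 30 members. Such a gap was not particular to these members, as the wider interferon lists further below also had it. This comparison shares its libraries with those of the Has2 and PH20 studies and with the difference between the studies, so the calls are not independent of each other. The value of Isg15 rested on Has2_WT1, without which it was -0.32 and not called, and its call held in 7 of the 16 fits that left out a library. The count of members was 11 without Has2_WT1 and 3 without PH20_WT4. With the skeletal muscle score as a covariate 2 were called, while the median of the set was -0.40 and the values of Ifit2 and Bst2, no longer called, were -0.81 and -0.62. Without the controls rich in T cell markers 4 were called, Ly6e and Rsad2 of the 7 and also Mx2 and Parp14, and the median was -0.28. Progenitor markers had a median log2 difference of -0.79 between the controls with 0 of 5 called, and muscle markers of -3.43 with 3 of 8 called lower.

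**Figure D3:**
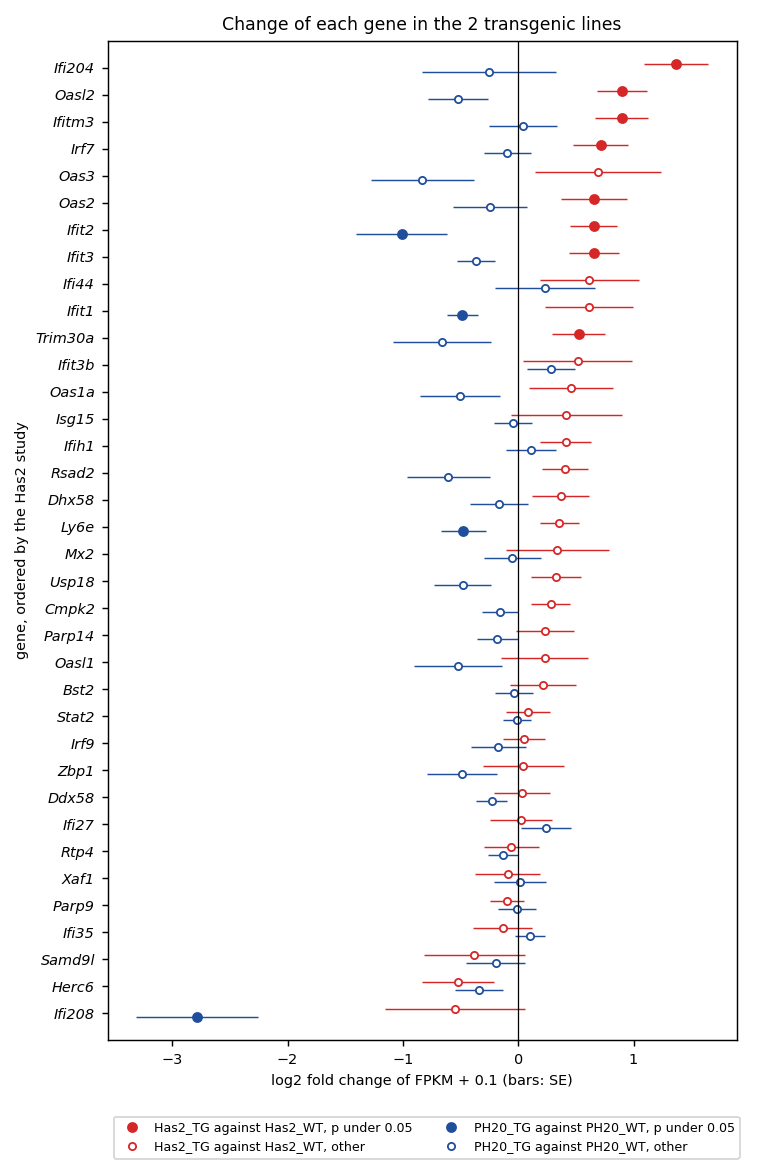
Log2 difference of each gene on the log2(FPKM + 0.1) scale (x axis) in Has2_TG against Has2_WT (red) and PH20_TG against PH20_WT (blue), with bars of 1 SE and filled points for an unadjusted p under 0.05, n = 4 libraries per group. Genes are ordered by the Has2 study; 29 red points lie above 0, 29 blue points lie below it, and Ifi208 in the PH20 study has the largest difference of all points.

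Among the transcription factors, Irf7, which amplifies the production of type I interferon, was the member called (ENSMUSG00000025498, chr7:141262706-141266481, minus strand). Its FPKM was 7.68, 13.4, 14.6 and 9.03 in Has2_WT1 to Has2_WT4 and 14.1, 18.6, 22.9 and 16.6 in Has2_TG1 to Has2_TG4. Has2_TG1 lay just below Has2_WT3, so the groups overlapped, and the log2 difference was 0.72 (SE 0.24). Across the PH20 libraries it was 15.7, 12.8, 16.6 and 15.6 in PH20_WT1 to PH20_WT4 and 18.6, 11.4, 10.8 and 17.6 in PH20_TG1 to PH20_TG4. The transgenic libraries fell on both sides of the controls there, with a log2 difference of -0.093 (SE 0.20). Stat2 and Irf9, both parts of the complex that binds the response element, were not called in either study, with log2 differences of 0.081 and 0.049 in the Has2 study and -0.0075 and -0.17 in the PH20 study.

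Among the nucleic acid sensors, the neighbouring genes Ifi204 and Ifi208 carried the largest differences of the set. Both belong to a family of interferon-inducible proteins, of which Ifi204 binds DNA, and both lie on chromosome 1 within the same cluster. Ifi204 (ENSMUSG00000073489, chr1:173747293-173766943, minus strand) had 7.15, 3.93, 4.58 and 9.54 FPKM in Has2_WT1 to Has2_WT4 and 14.2, 13.0, 18.9 and 16.6 FPKM in Has2_TG1 to Has2_TG4. The 2 groups did not overlap, with means of 15.7 ± 2.63 (SD, n = 4) and 6.30 ± 2.57 (SD, n = 4) and a log2 difference of 1.37 (SE 0.28). Across the PH20 libraries its FPKM was 15.8, 6.32, 11.5 and 9.95 in PH20_WT1 to PH20_WT4 and 19.8, 3.92, 4.07 and 17.6 in PH20_TG1 to PH20_TG4. PH20_TG2 and PH20_TG3 lay below all controls and PH20_TG1 and PH20_TG4 above them, with a log2 difference of -0.25 (SE 0.58). These were also the pair low and the pair high in progenitor markers, but not in these alone. The macrophage marker sum was 33.85 in PH20_TG2 and 55.2 in PH20_TG3, against 328 in PH20_TG1 and 112 in PH20_TG4. The adipocyte marker sum was 9966 and 10150 in the first pair, against 5520 and 6545 in the second. The part of these cell types in the values of Ifi204 was not tested. With the progenitor score as a covariate, the log2 difference of Ifi204 in the Has2 study was 0.13 and was no longer called. That fit cannot tell the score from the genotype. Of the stretches of 100 bases in its longest transcript, 16.8% are also in Ifi211, Mndal or Ifi207, so reads may have been split among them.

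Ifi208 (ENSMUSG00000066677, chr1:173673675-173698395, plus strand) showed another pattern. Its FPKM was 1.87, 0.810, 1.78 and 0.423 in PH20_WT1 to PH20_WT4 and 0.0333, 0.00956, 0.160 and 0.107 in PH20_TG1 to PH20_TG4. In reads these were 225, 67, 185 and 35 in PH20_WT and 3, 1, 14 and 8 in PH20_TG. The gene reached the minimum of 50 reads only through PH20_WT, so its differences are given as description. Every PH20_TG library lay below every PH20_WT library, and the log2 difference was -2.78 (SE 0.53) with a pseudocount of 0.1, the largest of any member. Its size depended on the scale, at -0.99 with a pseudocount of 1 and -4.44 with voom weights, and it was called in both. In the Has2 study its FPKM was 2.84, 1.59, 0.269 and 0.846 in Has2_WT1 to Has2_WT4 and 1.01, 0.905, 0.396 and 0.582 in Has2_TG1 to Has2_TG4, which overlapped, with a log2 difference of -0.55 (SE 0.61). The 4 highest values of all libraries were those of Has2_WT1, PH20_WT1, PH20_WT3 and Has2_WT2, the controls rich in T cell markers. Ifi208 reached the minimum in 7 of the 8 fits of the PH20 study that left out a library. Without PH20_WT1 and PH20_WT3 the gene fell under the minimum of 50 reads and was not tested, while PH20_WT2 and PH20_WT4 still lay above all 4 PH20_TG libraries. The part of lymphoid cells in this difference was not tested. The remaining sensors, Ifih1 and Ddx58, which detect cytosolic RNA, their relative Dhx58, and Zbp1, which binds nucleic acids in the Z form, were not called in either study. Their log2 differences ran from 0.035 for Ddx58 to 0.41 for Ifih1 in the Has2 study and from -0.49 for Zbp1 to 0.11 for Ifih1 in the PH20 study.

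**Figure D4:**
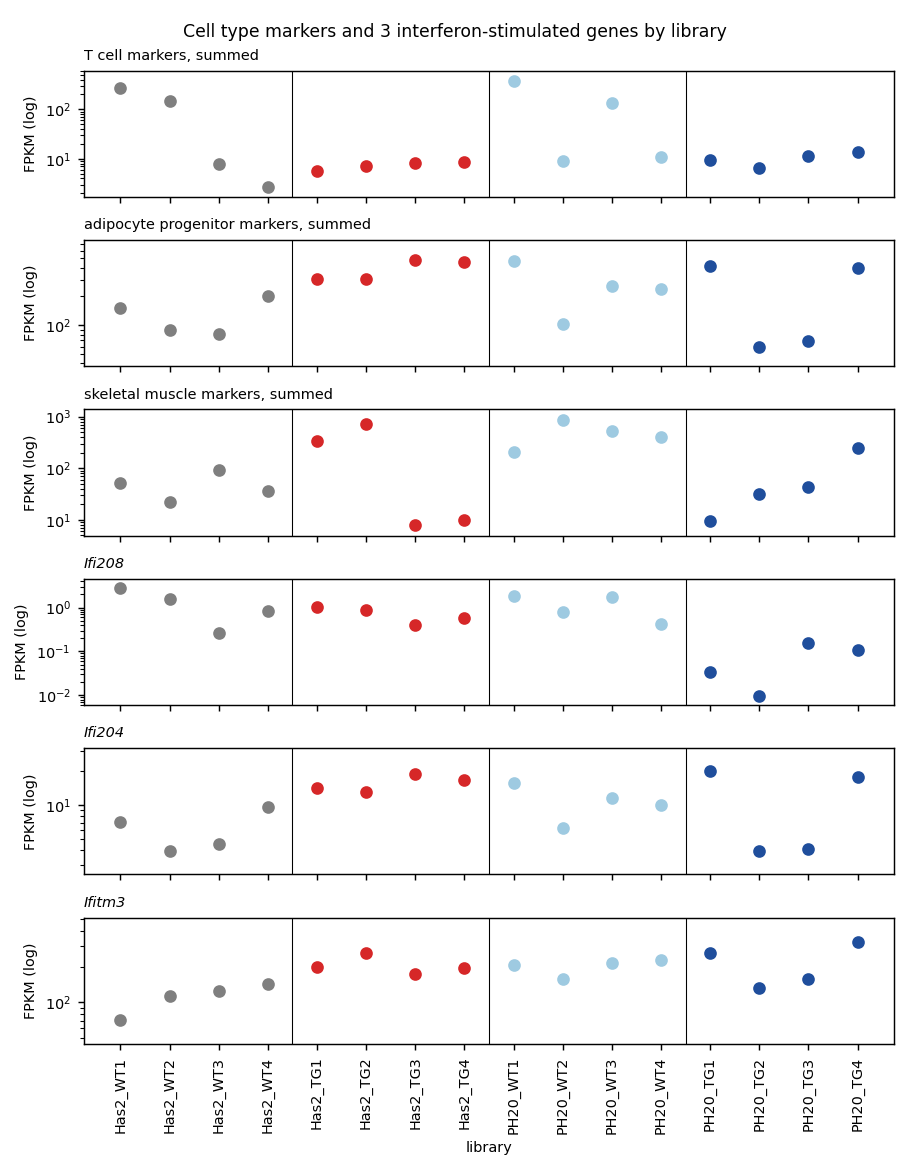
Summed FPKM of T cell, adipocyte progenitor and skeletal muscle markers, and FPKM of Ifi208, Ifi204 and Ifitm3, in each of the 16 libraries (log axes, points coloured by group). Ifi208 is highest in the 4 control libraries rich in T cell markers, and Ifi204 is lowest in PH20_TG2 (3.92 FPKM), Has2_WT2 (3.93 FPKM) and PH20_TG3 (4.07 FPKM), of which the PH20_TG libraries are the lowest in progenitor markers.

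The oligoadenylate synthetases, which make the short adenylates that activate RNase L, and their relatives had 2 of 5 members called higher in Has2_TG and 0 of 5 called in PH20_TG, with medians of 0.66 and -0.52. The shares of all genes were 6.25% called higher in the first study and 3.39% called lower in the second. Oasl2 (ENSMUSG00000029561, chr5:114896936-114912234, plus strand) had 2.58, 3.45, 3.77 and 5.22 FPKM in Has2_WT1 to Has2_WT4 and 6.68, 7.38, 6.32 and 7.21 FPKM in Has2_TG1 to Has2_TG4. The groups did not overlap and the means were 3.75 ± 1.10 (SD, n = 4) and 6.90 ± 0.487 (SD, n = 4), a log2 difference of 0.90 (SE 0.22). Across the PH20 libraries it had 6.04, 5.26, 6.62 and 6.23 FPKM in PH20_WT1 to PH20_WT4 and 6.91, 2.98, 3.11 and 4.69 FPKM in PH20_TG1 to PH20_TG4. There 3 of the 4 PH20_TG libraries lay below all controls and PH20_TG1 lay above them, with a log2 difference of -0.52 (SE 0.26) that was not called. The difference between the studies was 1.42 (SE 0.35) for Oasl2 and was called in each fit that left out 1 library.

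Oas2 (ENSMUSG00000032690, chr5:120730333-120749853, minus strand) had 2.84, 4.05, 4.98 and 4.76 FPKM in Has2_WT1 to Has2_WT4 and 7.55, 7.90, 3.73 and 7.87 FPKM in Has2_TG1 to Has2_TG4. The values of Has2_TG were above all controls except in Has2_TG3, and the log2 difference of 0.66 (SE 0.29) was called in 3 of the 8 fits that left out a library. In the PH20 study Oas2 had 5.21, 3.93, 7.06 and 6.05 FPKM in PH20_WT1 to PH20_WT4 and 8.36, 3.38, 3.15 and 4.89 FPKM in PH20_TG1 to PH20_TG4. Oas1a, Oas3 and Oasl1 were not called, with log2 differences of 0.46, 0.69 and 0.23 in the Has2 study and -0.50, -0.83 and -0.52 in the PH20 study. Oas1a shares 40.9% of its stretches of 100 bases with Oas1g, and its count is uncertain to that extent. Oas2, Oas3 and Oas1a lie in 1 cluster on chromosome 5 and Oasl2 and Oasl1 in another.

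The Ifit genes, whose products bind RNA and restrain its translation, lie next to each other on chromosome 19 from 34550694 to 34650009. Of the 4, 2 were called higher in Has2_TG and 2 lower in PH20_TG, and 3 were called higher in the difference between the studies, against 6.25%, 3.39% and 4.03% of all genes. Ifit2 (ENSMUSG00000045932, chr19:34550694-34576419, plus strand) had 4.02, 2.75, 2.58 and 3.84 FPKM in Has2_WT1 to Has2_WT4 and 4.89, 5.58, 5.54 and 4.68 FPKM in Has2_TG1 to Has2_TG4. These did not overlap, with means of 3.30 ± 0.738 (SD, n = 4) and 5.17 ± 0.457 (SD, n = 4) and a log2 difference of 0.66 (SE 0.20). In the PH20 study Ifit2 had 7.10, 3.50, 5.32 and 8.82 FPKM in PH20_WT1 to PH20_WT4 and 4.92, 1.81, 1.86 and 3.95 FPKM in PH20_TG1 to PH20_TG4. PH20_TG2 and PH20_TG3 lay lowest and the groups overlapped, with a log2 difference of -1.01 (SE 0.39). It was the single member called in opposite directions in both studies, and its difference between them was 1.67 (SE 0.46). In the PH20 study the call was lost without PH20_WT1, PH20_WT4, PH20_TG2 or PH20_TG3. In the Has2 study the log2 difference was 0.11 with the progenitor score as a covariate, which there cannot be told apart from the genotype.

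Ifit1 (ENSMUSG00000034459, chr19:34640871-34650009, plus strand) had 6.31, 6.63, 6.64 and 7.41 FPKM in PH20_WT1 to PH20_WT4 and 5.65, 4.33, 4.42 and 4.84 FPKM in PH20_TG1 to PH20_TG4. The ranges were narrow and apart, and the log2 difference of -0.49 (SE 0.13) was called in all 8 fits that left out a library, but not in the fit over all 16 libraries. With the skeletal muscle score as a covariate it was -0.48, of the same size, and was not called. In the Has2 study it had 11.7, 3.76, 3.59 and 5.68 FPKM in Has2_WT1 to Has2_WT4 and 5.79, 6.99, 10.8 and 11.5 FPKM in Has2_TG1 to Has2_TG4. Has2_WT1 lay above every transgenic library there, and the difference of 0.61 (SE 0.38) was not called.

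Ifit3 (ENSMUSG00000074896, chr19:34583531-34588731, plus strand) had 12.1, 12.1, 13.1 and 22.4 FPKM in Has2_WT1 to Has2_WT4 and 20.2, 23.2, 21.3 and 26.7 FPKM in Has2_TG1 to Has2_TG4. Only Has2_WT4 reached the range of Has2_TG, and the log2 difference was 0.66 (SE 0.21). For the PH20 line and its controls it had 16.3, 18.5, 18.7 and 23.2 FPKM in PH20_WT1 to PH20_WT4 and 11.8, 17.7, 13.8 and 16.4 FPKM in PH20_TG1 to PH20_TG4, with a log2 difference of -0.36 (SE 0.17) that was not called. Its neighbour Ifit3b had 2.02, 2.98, 3.004 and 9.32 FPKM in Has2_WT1 to Has2_WT4 and 3.05, 4.16, 6.94 and 8.35 FPKM in Has2_TG1 to Has2_TG4. Has2_WT4 was again the highest control, at 9.32 FPKM the highest of all libraries, and the log2 difference of 0.52 (SE 0.47) was not called. In the PH20 study the log2 difference of Ifit3b was 0.29 (SE 0.21), of the opposite sign to that of Ifit3. Ifit3 shares 31.7% of its stretches of 100 bases with Ifit3b, and Ifit3b 27.4% with Ifit3, so the split of reads between them is uncertain.

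**Figure D5:**
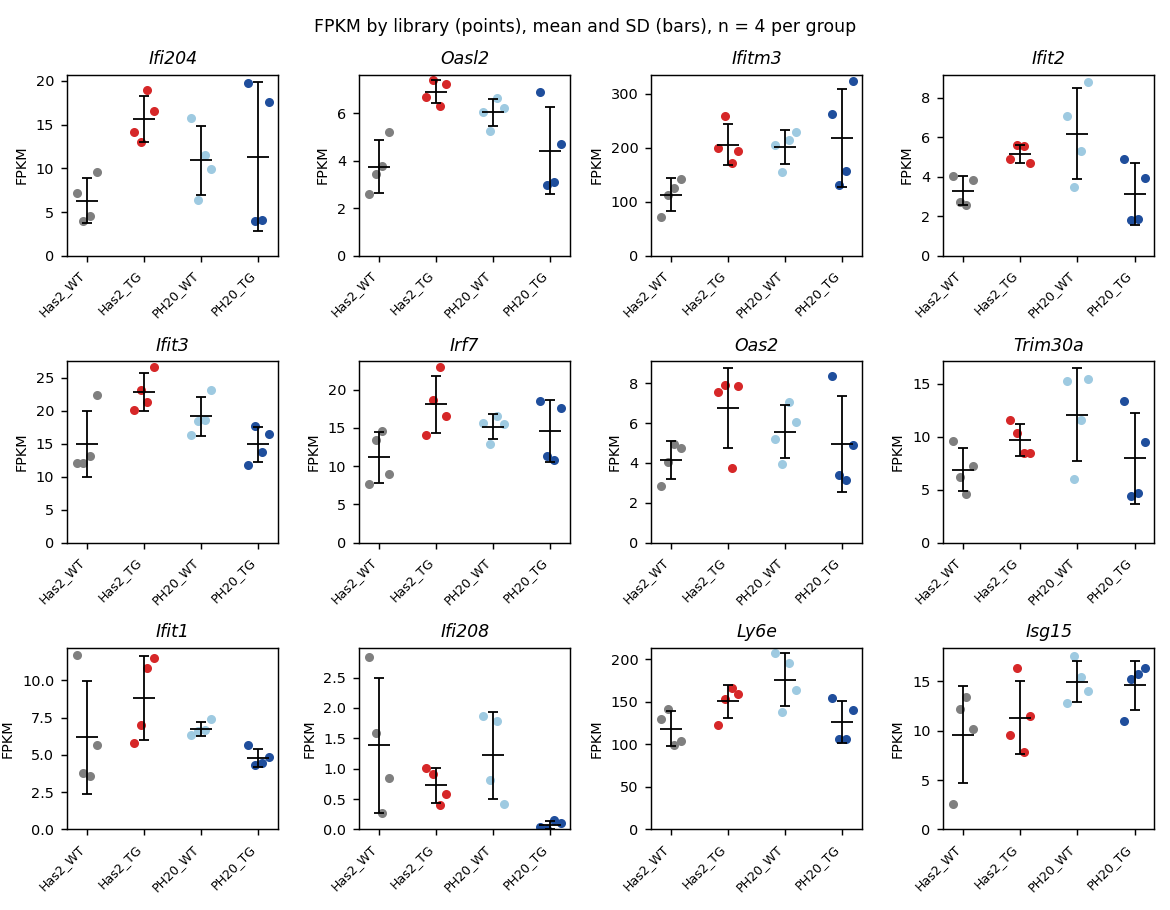
FPKM of 12 of the genes in each library (points), with the mean and SD of each group as black bars (n = 4), on linear axes that start at 0. For Ifi204, Oasl2, Ifitm3 and Ifit2 the Has2_TG points lie wholly above Has2_WT, and for Ifi208 and Ifit1 the PH20_TG points lie wholly below PH20_WT.

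The genes of the Isg15 system were not called in either study. Isg15, a ubiquitin-like modifier (ENSMUSG00000035692, chr4:156199424-156200818, minus strand), had 2.57, 12.2, 13.4 and 10.2 FPKM in Has2_WT1 to Has2_WT4 and 9.55, 16.3, 7.84 and 11.5 FPKM in Has2_TG1 to Has2_TG4. Has2_WT1 lay far below the other 3 controls, which covered much of the range of Has2_TG, and the log2 difference was 0.42 (SE 0.48). Among PH20 libraries the gene had 12.8, 17.6, 15.4 and 14.0 FPKM in PH20_WT1 to PH20_WT4 and 10.96, 15.2, 15.7 and 16.3 FPKM in PH20_TG1 to PH20_TG4, and the difference of -0.045 (SE 0.16) was smaller than its SE. Usp18, which removes Isg15 from proteins and dampens signalling at the interferon receptor, was among the 12 members called in the difference between the studies, at 0.81 (SE 0.33). Its FPKM was 4.22, 3.60, 3.25 and 4.67 in Has2_WT1 to Has2_WT4 and 5.10, 6.61, 4.63 and 3.74 in Has2_TG1 to Has2_TG4. For the PH20 line and its controls it was 5.96, 3.08, 4.91 and 4.17 in PH20_WT1 to PH20_WT4 and 2.68, 2.77, 2.77 and 4.60 in PH20_TG1 to PH20_TG4. The groups overlapped in both studies, with log2 differences of 0.33 (SE 0.22) and -0.48 (SE 0.25). Herc6, the ligase that attaches Isg15 in the mouse, had log2 differences of -0.52 and -0.34. It was called lower in Has2_TG in the fit over all 16 libraries. Of its stretches of 100 bases, 20.9% are in Gm45193, a transcript on the same strand.

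Of the remaining effectors, Ifitm3, which blocks the entry of viruses from endosomes (ENSMUSG00000025492, chr7:141009586-141010770, minus strand), had 71.2, 112, 125 and 142 FPKM in Has2_WT1 to Has2_WT4 and 199, 259, 172 and 194 FPKM in Has2_TG1 to Has2_TG4. All Has2_TG libraries lay above all controls, the means were 113 ± 30.4 (SD, n = 4) and 206 ± 37.5 (SD, n = 4), and the log2 difference was 0.90 (SE 0.23). PH20 tissue had 205, 156, 214 and 229 FPKM in PH20_WT1 to PH20_WT4 and 262, 131, 156 and 323 FPKM in PH20_TG1 to PH20_TG4. PH20_TG2 lay below all controls and PH20_TG1 and PH20_TG4 above them, with a log2 difference of 0.038 (SE 0.29). Without PH20_TG2 and PH20_TG3 it was 0.55 and was called higher. With the progenitor score as a covariate, the log2 difference of Ifitm3 in the Has2 study was 1.40 and was called. That fit cannot tell the score from the genotype.

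Trim30a, a ubiquitin ligase family member, had 9.56, 6.21, 4.63 and 7.20 FPKM in Has2_WT1 to Has2_WT4 and 11.6, 10.3, 8.51 and 8.47 FPKM in Has2_TG1 to Has2_TG4. The groups overlapped through Has2_WT1, and the log2 difference of 0.52 (SE 0.23) was called in 2 of the 8 fits that left out a library. Across the PH20 libraries it had 15.3, 6.03, 11.6 and 15.4 FPKM in PH20_WT1 to PH20_WT4 and 13.4, 4.38, 4.65 and 9.49 FPKM in PH20_TG1 to PH20_TG4, with the lowest values again in PH20_TG2 and PH20_TG3 and a log2 difference of -0.66 (SE 0.42) that was not called.

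Ly6e, a surface protein anchored by a lipid (ENSMUSG00000022587, chr15:74955051-74959905, plus strand), had 207, 138, 195 and 163 FPKM in PH20_WT1 to PH20_WT4 and 155, 106, 106 and 139.9 FPKM in PH20_TG1 to PH20_TG4. PH20_TG2 and PH20_TG3 lay below all controls and PH20_TG1 and PH20_TG4 above PH20_WT2, and the log2 difference of -0.48 (SE 0.19) was called in 3 of the 8 fits that left out a library. In the Has2 study it had 129, 141, 98.7 and 103 FPKM in Has2_WT1 to Has2_WT4 and 123, 153, 167 and 159 FPKM in Has2_TG1 to Has2_TG4. The difference of 0.35 (SE 0.17) was not called, and it was 0.56 and called higher without the controls rich in T cell markers. In the PH20 study it was -0.26 without those controls and -0.24 in the fit adjusted for B cell markers, and was not called in either.

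Rsad2, an enzyme that makes a chain-terminating nucleotide, and its neighbour Cmpk2, a mitochondrial nucleotide kinase, lie side by side on chromosome 12. Rsad2 had 3.72, 2.43, 2.73 and 3.25 FPKM in Has2_WT1 to Has2_WT4 and 3.62, 4.11, 4.41 and 3.89 FPKM in Has2_TG1 to Has2_TG4. For the PH20 line and its controls it had 3.11, 5.66, 4.37 and 7.90 FPKM in PH20_WT1 to PH20_WT4 and 4.98, 2.13, 2.31 and 4.40 FPKM in PH20_TG1 to PH20_TG4. The groups overlapped in both studies, and the log2 differences of 0.41 (SE 0.20) and -0.61 (SE 0.36) were called only in the difference between the studies, at 1.01 (SE 0.42). Cmpk2 had log2 differences of 0.28 and -0.16 and was not called.

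The most abundant members other than Ifitm3 and Ly6e were Ifi27, Bst2 and Ifi35, and none of these was called in either study. Ifi27 had 259.9, 417, 620.2 and 425 FPKM in Has2_WT1 to Has2_WT4 and 444, 518, 318 and 415 FPKM in Has2_TG1 to Has2_TG4. Among PH20 libraries the gene had 282, 422, 340.5 and 416 FPKM in PH20_WT1 to PH20_WT4 and 325, 432, 561 and 417 FPKM in PH20_TG1 to PH20_TG4. Its log2 differences of 0.022 (SE 0.27) and 0.24 (SE 0.22) lay near or within their SE. Bst2, which tethers budding viruses to the cell surface, had 46.2, 78.9, 88.6 and 69.4 FPKM in Has2_WT1 to Has2_WT4 and 60.6, 119, 56.2 and 101 FPKM in Has2_TG1 to Has2_TG4. PH20 tissue had 103, 94.9, 107 and 146 FPKM in PH20_WT1 to PH20_WT4 and 124, 92.9, 112 and 105 FPKM in PH20_TG1 to PH20_TG4. Bst2 was among the members called lower in Has2_WT than in PH20_WT, while its log2 differences within the studies were 0.22 (SE 0.29) and -0.037 (SE 0.17). Ifi35 had 19.6, 20.8, 19.7 and 19.0 FPKM in Has2_WT1 to Has2_WT4 and 12.2, 23.6, 13.3 and 27.1 FPKM in Has2_TG1 to Has2_TG4. Across the PH20 libraries it had 17.9, 20.1, 18.6 and 24.1 FPKM in PH20_WT1 to PH20_WT4 and 20.0, 22.3, 23.8 and 20.1 FPKM in PH20_TG1 to PH20_TG4, and 16.8% of its exonic bases overlap Gm11626 on the opposite strand. The controls of Ifi35 were within 19.0 and 20.8 FPKM in Has2_WT, while Has2_TG spread from 12.2 to 27.1. The other effectors, Mx2, Samd9l, Xaf1, Ifi44 and Rtp4, and the ADP-ribosyltransferases Parp9 and Parp14 were not called in either study. Their log2 differences ran from -0.38 for Samd9l to 0.62 for Ifi44 in the Has2 study and from -0.20 for Samd9l to 0.23 for Ifi44 in the PH20 study. Mx2 is annotated as a polymorphic pseudogene, and 9.40% of the exonic bases of Parp9 overlap Dtx3l on the opposite strand.

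The rest of the interferon pathway was examined in 140 further genes. Of 21 interferon genes, the ligands, 17 had 0 reads in every library, which allows up to 3 reads in each, and 0 reached the minimum for testing. Ifng was the single ligand with more than 3 reads in any library, with 27 reads in PH20_WT1, a control rich in T cell markers, and 89 in all. Of 6 receptor genes, 5 were tested and 0 were called in either study, with medians of 0.062 and 0.11. Of 13 signalling genes, Tyk2, the kinase of the type I receptor, was called lower in Has2_TG at a log2 difference of -0.43 (SE 0.18), and Irf2, a repressor of interferon-responsive promoters, was called lower in PH20_TG at -0.66 (SE 0.18). Of 11 further genes of nucleic acid sensing, 0 were called in either study.

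The larger lists held genes known to respond to type I or type II interferon that were not among the 36. In the Has2 study, 7 of 56 tested genes of the first list were called higher and 1 lower, against 6.25% and 3.75% of all genes, with a median of -0.024. The smallest p-values were those of Ifi205, Ifi207 and Ifi211, neighbours and relatives of Ifi204, with log2 differences of 1.58 (SE 0.26), 1.15 (SE 0.19) and 1.16 (SE 0.30). Ifit1bl1, a relative of Ifit1, was the gene called lower, at -2.75 (SE 0.82), and was named after its value was seen. Of 26 tested genes of the type II list, 3 were called higher, Gm4951, Gbp3 and Irgm2, and 1 lower, Nlrc5. In the PH20 study, 11 of 55 tested genes of the first list were called lower and 1, Znfx1, higher, against 3.39% and 3.20% of all genes, with a median of -0.27. Ifi213, Trim34a and Slfn8 had the smallest p-values, with log2 differences of -2.41 (SE 0.56), -0.97 (SE 0.23) and -1.05 (SE 0.30). Of the 26 tested genes of the type II list 5 were called lower, led by Tgtp2 at -1.06 (SE 0.25) and Gbp9 at -0.68 (SE 0.21), with a median of -0.28. Over all 140, 110 were tested in each study. Of these, 10 (9.09%) were called higher and 3 (2.73%) lower in Has2_TG with a median of -0.019, near the 6.25% and 3.75% of all genes. In PH20_TG 1 (0.909%) was called higher and 17 (15.5%) lower with a median of -0.25, against 3.20% and 3.39% of all genes. Thus the wider set had a median near that of all genes in the Has2 study and a negative median in the PH20 study, and 0 of its genes passed adjustment in either. Between the controls, 20 of 108 tested (18.5%) were called lower in Has2_WT and 2 (1.85%) higher, against 4.66% and 5.61% of all genes. The median was -0.32. Of the 26 tested type II genes 13 were called lower there, with a median of -0.48. In the difference between the studies, 14 of 108 (13.0%) were called higher and 0 lower, against 4.03% and 3.68% of all genes.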

How the data were processed

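Bulk RNA of iWAT was sequenced from 16 libraries, 4 per group. Reads were mapped by the authors with STAR (version 2.7.9a) on GRCm38 and counted per gene by the same tool; the authors tested with DESeq2 and deposited FPKM per gene and library. Reads were recovered from FPKM and gene length, with the smallest nonzero product in each library taken as a single read. This gave whole reads in 100% of values (tolerance 0.0001). The library total inferred in this way was 0.886 times the reads on genes in Has2_WT3 and 1.14 times in PH20_WT1. Levels were tested with limma (version 3.58.1, R version 4.3.3), two-sided, with a variance trend, on log2(FPKM + 0.1) for genes that averaged 50 or more reads. The pseudocount shrinks the differences of low genes. Each study used its own 8 libraries, and the difference between studies and the control comparison used all 16. Calls were made at an unadjusted p under 0.05. The chi-square per degree of freedom between any 2 libraries was at least 28.7, so none was a duplicate. The score of a marker list is its mean log2(FPKM + 0.1). Promoters came from RefSeq for GRCm38.p6, and coordinates from the deposited table.

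The members and the lists were chosen with earlier results of these data known. Values in every library are given for members called in a study or in the difference between studies, the 5 most abundant, and Ifit3 with Ifit3b; of other lists, the 3 genes with the smallest p-value in each study may be named. The alternatives were a pseudocount of 1, other minimums (no reads, a mean FPKM of 1), voom weights, quantile normalization, scaling by the median of ratios, a replicate block, B cell or skeletal muscle scores as covariates, all 16 libraries, and each library left out. Leaving out the controls rich in T cell markers, leaving out PH20_TG2 and PH20_TG3, and adjusting for the progenitor score were additions made with the data in view.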

Additional observations from a re-analysis of the deposited data

Results flagged for a closer look

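Within groups of 4 libraries, a single library stood apart from the other 3 by Dixon's criterion in 8 of 144 pairs of a gene and a group, and chance flags about 1 in 20. In Has2_TG3, Stat2 was high at 11.1 FPKM, and Oas2 and Rtp4 were low at 3.73 and 6.94 FPKM. In Has2_WT1, Isg15 was low at 2.57 FPKM, and in Has2_WT4, Ifit3 was high at 22.4 FPKM. In PH20_TG4, Usp18 and Herc6 were high at 4.60 and 1.32 FPKM, and in PH20_TG1, Parp14 was high at 8.55 FPKM.

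The change in the Has2 line minus that in the PH20 line was larger than its error at an unadjusted p under 0.05 for 12 genes, none after adjustment. On the log2 scale it was 1.02 for Ifit3, 1.67 for Ifit2, 1.10 for Ifit1, 0.81 for Usp18, 2.23 for Ifi208, 1.62 for Ifi204, 1.42 for Oasl2, 0.83 for Ly6e, 1.01 for Rsad2, 1.18 for Trim30a, 0.86 for Ifitm3 and 0.81 for Irf7. The gap between the control groups is part of each of these values. For Ifi208 the change was negative in both lines, -0.55 in Has2 and -2.78 in PH20, and for Ifitm3 it was positive in both, 0.90 and 0.038. The value of Ifi208 depended on the scale: it was 0.62 with a pseudocount of 1, 3.70 with voom weights and 1.87 with the skeletal muscle score as a covariate, and was not called in any of these.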

How the results depend on the processing

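No alternative reversed the direction of a called difference. In the Has2 study the count of members called stayed within 1.5 times of 8, from 6 to 11 with 1 library left out (6 without Has2_TG4, 11 without Has2_WT1). In the PH20 study the count was 4, and ranged from 2 to 9 with 1 library left out. It was 1 with the skeletal muscle score as a covariate, 5 with the progenitor score and 2 without the controls rich in T cell markers. In the difference between the studies it was 12, and from 6 to 15 with 1 library left out, 6 with the skeletal muscle score and 3 with the progenitor score as a covariate. Between the controls it was 7, and from 3 to 11 with 1 library left out, 2 with the skeletal muscle score and 4 without the controls rich in T cell markers. These fits have fewer libraries or an added term, and the cause of the shifts was not tested. For the 31 differences called in the 4 comparisons, the direction was kept in all 752 combinations with an alternative and the call was lost in 148. Gains were not counted over the same genes: apart from fits that left out 1 library, 10 further members were called under some alternative in the Has2 study, 7 in the PH20 study, 4 in the difference and 5 between the controls. The abundant members that were not called changed sign in 17 of 164 combinations.

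The labels do not say that same-numbered libraries belong together, and the main fits did not pair them. The correlations below do not settle whether they were paired. The correlation of deviations between same-numbered libraries was -0.0031, 0.13, -0.18 and 0.015 in the Has2 study and 0.34, 0.42, -0.028 and -0.036 in the PH20 study. With the replicate block, 7 members were called in each study, and 13 and 9 in the difference between the studies and between the controls. Over all genes of the PH20 study, the block took those called lower from 425 to 669 and those called higher from 401 to 633. Genes called higher went from 788 to 750 in the Has2 study and from 507 to 597 in the difference. Those called lower between the controls went from 587 to 710. Depth limits Ifi208 most, with 1 to 14 reads per library in PH20_TG.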
